A study of Mus musculus with 12 samples.

Results

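Imprinted genes are described here in WT and *Meteor* KO mouse embryonic stem cells (ESCs), as a set of 42 genes among the 46517 genes with counts. The 42 were listed by name from known imprinted loci of the mouse, with earlier results of these data known. They fall into 19 loci, of which 11 are clusters with more than 1 member and 8 are single genes. Textbook knowledge assigns 15 of them to the maternal copy, 25 to the paternal copy and 2, *Grb10* and *Gnas*, to either copy according to promoter and tissue. Some of these genes are imprinted in certain tissues only, such as *Ube3a* in neurons, and the copy read in these cells was not measured. All 42 were found in the count tables, and 41 passed the filter of more than 1 CPM (reads of a gene relative to all reads counted, on library sizes scaled by TMM) in any of 12 libraries. The exception was *Rtl1*.

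Polyadenylated RNA was sequenced from 4 groups of 3 libraries, namely WT and *Meteor* KO cells at day 0 and at day 3. Every library came from an ESC line of C57BL/6 background in which EGFP was placed at the start of *Eomes*, so the WT cells also carried this reporter allele. Day 0 cells were undifferentiated ESCs from culture on mouse embryonic fibroblast feeders. Day 3 cells were embryoid bodies, cell aggregates formed in hanging drops in a medium for cardiac differentiation. The KO cells lacked the *Meteor* enhancer after a deletion with Cas9 nickase, puromycin selection and picking of single clones. The sources used here do not say how many clones the KO libraries came from, or whether replicates were separate cultures. The p-values therefore measure only the spread between these samples, and an effect of the deletion cannot be told apart from a property of a clone.

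At an imprinted gene 1 parental copy is silent. At most such loci the copies are told apart by DNA methylation of a control region, which was set in the egg or the sperm and is kept through later cell divisions. Neighbouring imprinted genes share a control region, which often holds the promoter of a long noncoding RNA and decides which copy of each gene in the cluster is read. Many imprinted genes govern growth of the embryo and the placenta, and ESCs in culture are known to vary in their imprints. The counts used here do not separate the parental copies, so that only the summed level of both copies was measured.

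The libraries held between 17455927 and 23910943 reads assigned to genes (median 19651103). *Platr11*, an annotated noncoding transcript of the *Meteor* locus, had 6.11, 1.56 and 3.33 CPM in WT and 0, 0.06 and 0.05 CPM in KO at day 0. *Upf3b*, a factor of nonsense-mediated decay that lies on chromosome X and not with *Platr11* on chromosome 9, had 45.4 to 55.8 CPM in the WT libraries and at most 0.66 CPM in any KO library. The pluripotency genes *Pou5f1*, *Nanog* and *Sox2* were each above 300 CPM in every day 0 library. The 8 mesendoderm markers summed to between 931.8 and 1817 CPM in WT and between 76.7 and 152 CPM in KO at day 3. *T* was at 77.3 CPM in WT day 0 replicate 3, against 4.64 and 6.41 CPM in the other WT libraries of that day. Among the WT libraries of day 3, replicate 3 stood apart, with 105 CPM of *Hand1* against 1.68 and 1.25 CPM in the others, 11.3 CPM of *Ttr* against 0.14 and 0.43 CPM, and 334 CPM of *Pou5f1* against 629 and 639 CPM. Results at day 3 that rest on this library are given with and without it. In these bulk samples fewer cells that express a gene and less RNA of that gene per cell cannot be told apart.

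The promoters of several members that changed are shown first, because imprints are read by proteins that bind their sequence. ZFP57, the zinc finger protein that keeps methylation at imprinted control regions, binds the letters TGCCGC when they are methylated. RefSeq promoter windows of GRCm38.p6, each 250 bases before and 50 bases after an annotated start, were at hand for 34 of the 42 members. These letters, on either strand, occurred in a window of 13 of the 34 members (38.2%), against 13.1% of 27025 genes. The windows of the members also held more CG pairs, with a median of 15.5 against 7 in all windows, and the part of base composition in the motif count was not tested. Capitals mark TGCCGC or its reverse complement GCGGCA in the windows below. These belong to 4 members that changed and hold a match and to *Ndn*, which changed and holds none in its window. Of the others that changed between the genotypes, *Peg3*, *Zrsr1*, *Rian*, *Usp29*, *Dlk1*, *Peg12* and *Sfmbt2* hold no match in their windows. A match occurs in a window of *Commd1*, *Grb10*, *Igf2*, *Nnat*, *Snrpn*, *Zdbf2* and *Zim1*. *Mest* also has a window without a match. A match is a description of the letters only, and binding was not measured.
Meg3 (chr12:109540746-109541045, plus strand): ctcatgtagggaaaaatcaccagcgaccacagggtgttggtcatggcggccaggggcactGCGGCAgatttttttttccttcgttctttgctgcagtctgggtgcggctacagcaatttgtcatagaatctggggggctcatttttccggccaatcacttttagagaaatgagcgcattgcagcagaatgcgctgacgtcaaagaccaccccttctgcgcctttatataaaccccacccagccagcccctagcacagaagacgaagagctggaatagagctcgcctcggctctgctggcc
Mest (chr6:30737800-30738099, plus strand): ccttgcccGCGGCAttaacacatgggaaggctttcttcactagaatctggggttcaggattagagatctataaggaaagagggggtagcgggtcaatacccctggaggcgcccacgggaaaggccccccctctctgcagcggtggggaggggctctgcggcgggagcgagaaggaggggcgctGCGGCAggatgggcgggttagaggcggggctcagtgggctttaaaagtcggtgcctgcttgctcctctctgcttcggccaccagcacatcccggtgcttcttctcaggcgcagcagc
Plagl1 (chr10:13090582-13090881, plus strand): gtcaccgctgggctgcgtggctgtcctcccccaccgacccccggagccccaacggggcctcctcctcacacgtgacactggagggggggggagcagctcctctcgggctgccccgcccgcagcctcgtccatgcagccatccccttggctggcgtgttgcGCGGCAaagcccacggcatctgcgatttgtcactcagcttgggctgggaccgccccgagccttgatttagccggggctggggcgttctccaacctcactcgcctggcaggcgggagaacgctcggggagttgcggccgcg
Nap1l5 (chr6:58907077-58907376, minus strand): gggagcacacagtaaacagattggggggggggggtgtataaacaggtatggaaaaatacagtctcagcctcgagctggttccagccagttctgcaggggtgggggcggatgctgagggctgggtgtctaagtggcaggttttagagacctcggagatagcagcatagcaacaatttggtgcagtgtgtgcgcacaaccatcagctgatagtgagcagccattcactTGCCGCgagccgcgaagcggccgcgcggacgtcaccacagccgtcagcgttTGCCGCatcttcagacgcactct
Ndn (chr7:62348027-62348326, plus strand): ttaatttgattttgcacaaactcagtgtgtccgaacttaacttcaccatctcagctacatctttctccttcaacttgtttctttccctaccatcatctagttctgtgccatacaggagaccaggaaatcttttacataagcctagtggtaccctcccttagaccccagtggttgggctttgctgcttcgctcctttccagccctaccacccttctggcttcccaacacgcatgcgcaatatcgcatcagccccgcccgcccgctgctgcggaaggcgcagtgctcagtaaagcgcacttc

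KO and WT cells were compared at each day to ask whether the imprinted genes differed. At day 0, 13 of the 41 tested members changed, 2 higher and 11 lower in KO cells (edgeR's quasi-likelihood test, adjusted p-value below 0.05). This is 31.7% of the members, beside 20.4% of all 15673 genes tested (9.56% higher, 10.9% lower). The median log2 fold change was -0.28 over the members and -0.009 over all genes. *Cdkn1c* and *Zrsr1* were higher, and *Peg3*, *Usp29*, *Mest*, *Ndn*, *Meg3*, *Rian*, *Nnat*, *Grb10*, *Plagl1*, *Impact* and *Commd1* were lower. At day 3 of differentiation 21 members changed, 6 higher and 15 lower in KO cells. This is 51.2% of the members, beside 30.9% of all genes (14.3% higher, 16.7% lower), and the medians were -0.43 and -0.002. A log2 fold change above 1 in size as well was measured for 5 members at day 0, 2 higher and 3 lower (3.41% and 5.51% of all genes), and for 12 at day 3, 0 higher and 12 lower (4.47% and 8.7% of all genes). Without replicate 3 of WT at day 3, 16 of 39 tested members changed, 4 higher and 12 lower. *Airn* and *Peg13* passed the filter only through that library, so the filter favoured the call of *Peg13* as lower in KO cells at day 3. Without the replicate block 9 members changed at day 0 and 19 at day 3, and with a replicate block within each day 18 and 27 did. WT and KO libraries with the same number shared deviations within a day and not between days. The block within each day follows that pairing, and the block of the main fit does not. The share of all genes called was not counted under these alternatives, so their counts cannot be set beside it. As the members were chosen with earlier results of these data known, the shares of members called describe this list and do not test it.

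Direction and day differed between members. Of the 41 tested, 7 changed in the same direction at both days (*Mest*, *Ndn*, *Peg3*, *Plagl1*, *Grb10*, *Commd1* and *Zrsr1*), of which *Zrsr1* alone was higher in KO cells. *Meg3* and *Impact* changed in opposite directions, lower at day 0 and higher at day 3. A further 4 passed the test at day 0 but not at day 3, 12 at day 3 but not at day 0, and 16 at neither day. By parental copy, 11 of 24 tested paternally expressed members were lower in KO cells at day 3 and 5 were higher, and of the 15 maternally expressed members 3 were lower and 1 higher. The 11 include *Peg13*, which passed the filter only through WT day 3 replicate 3. These textbook classes need not hold in these cells, as for *Ube3a*, which is counted here as maternal. The difference between the parental classes was not tested.

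**Figure D1:**
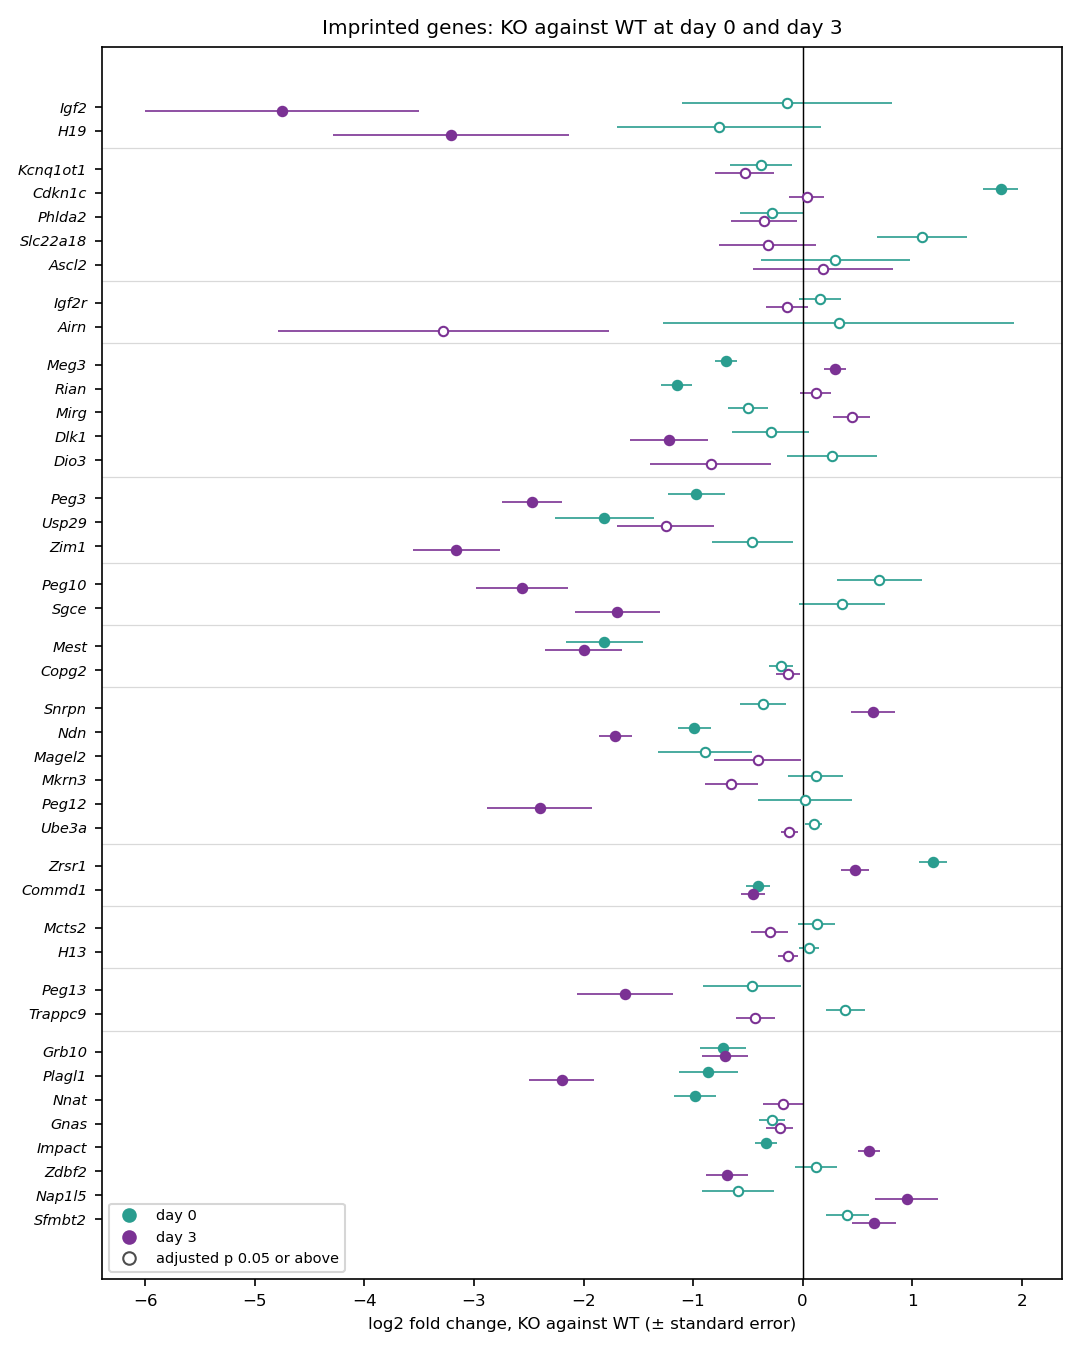
Log2 fold change of KO against WT (horizontal axis) for each of the 41 tested members (vertical axis, grouped by cluster), at day 0 in green and at day 3 in purple, with standard errors as bars. Filled points passed an adjusted p-value below 0.05. Most filled points lie left of 0, *Cdkn1c* and *Zrsr1* lie right of 0 at day 0, and *Igf2*, *H19* and *Airn* carry the widest bars at day 3.

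The *Dlk1*-*Dio3* cluster on chromosome 12 held 3 noncoding members, of which *Meg3* and *Rian* were lower in KO ESCs. *Meg3*, a maternally expressed long noncoding RNA, at chr12:109541001-109571726 of GRCm38 (plus strand), had 254, 249 and 316 CPM in WT and 184, 127 and 198 CPM in KO at day 0. All 3 KO libraries lay below all WT libraries, with a log2 fold change of -0.70 ± 0.10 (SE; edgeR, adjusted p = 0.0013). At day 3 *Meg3* had 441, 397 and 598 CPM in WT and 559, 526 and 661 CPM in KO. The groups overlapped at this day, although KO was higher in each of the 3 pairs of libraries with the same replicate number, and the log2 fold change was 0.30 ± 0.10 (SE; edgeR, adjusted p = 0.0404). That call did not hold in 7 of 12 fits that each left out 1 library, and it held when 1 of WT day 0 replicates 1 and 2, WT day 3 replicate 3 or KO day 0 replicates 1 and 2 was left out, with log2 fold changes between 0.24 and 0.39 and adjusted p up to 0.163 in all. Without the replicate block it was 0.28 (adjusted p = 0.281 in edgeR), and it was also lost with a filter of 10 counts in every sample.

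*Rian*, the maternally expressed host RNA of a large group of C/D snoRNAs, had 351, 376 and 449 CPM in WT and 216, 128 and 202 CPM in KO at day 0. Its KO libraries all lay below its WT libraries, with a log2 fold change of -1.15 ± 0.14 (SE; edgeR, adjusted p = 0.000697). At day 3 the values were 749, 524 and 646 CPM in WT and 837, 563 and 688 CPM in KO, and the log2 fold change was 0.12 ± 0.14 (SE; edgeR, adjusted p = 0.55). *Mirg*, the host RNA of a row of microRNAs in the same cluster, had 15.3, 16.5 and 23.3 CPM in WT and 14.8, 8.42 and 16.6 CPM in KO at day 0. In day 3 cells it had 33.9, 26.6 and 31.1 CPM in WT and 48.3, 34.3 and 43.2 CPM in KO. *Mirg* was lower in KO in all 3 pairs at day 0 and higher in all 3 at day 3, but neither difference passed the test, at log2 fold changes of -0.50 (adjusted p = 0.0804 in edgeR) and 0.45 (adjusted p = 0.0744 in edgeR). With the replicate block set within each day both passed, at -0.49 (adjusted p = 0.0286 in edgeR) and 0.45 (adjusted p = 0.0209 in edgeR). The effect of KO differed between the days for all 3 noncoding genes, by 0.99 (adjusted p = 0.00198 in edgeR) for *Meg3*, 1.27 (adjusted p = 0.00312 in edgeR) for *Rian* and 0.95 (adjusted p = 0.0307 in edgeR) for *Mirg* on the log2 scale. For *Meg3* and *Rian* this held in each of 12 fits that left out 1 library. For *Mirg* it was lost in 6 of them, those without WT day 0 replicates 2 or 3, WT day 3 replicate 3, KO day 0 replicate 2 or KO day 3 replicates 1 or 2, with differences between 0.77 and 1.15 and adjusted p up to 0.0861.

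The protein-coding members of the cluster are read from the paternal copy and stayed low. *Dlk1*, a transmembrane protein related to Notch ligands, had 6.33, 6.99 and 7.76 CPM in WT and 5.82, 6.61 and 4.64 CPM in KO at day 0, where the groups overlapped. Its day 3 levels were 3.49, 6.54 and 12.1 CPM in WT and 2.5, 4.03 and 2.62 CPM in KO, a log2 fold change of -1.22 ± 0.36 (SE; edgeR, adjusted p = 0.0289). The lowest WT library lay below the highest KO library, and the highest WT library was replicate 3. Without that library the difference was -0.62 (adjusted p = 0.121 in edgeR), and the call was also lost without KO day 3 replicates 1 or 3, with adjusted p up to 0.155. *Dio3*, an enzyme that inactivates thyroid hormone, had 4.75, 2.66 and 3.91 CPM in WT and 3.19, 6.11 and 4.85 CPM in KO at day 0. By day 3 it had 0.23, 0.63 and 1.28 CPM in WT and 0.25, 0.40 and 0.50 CPM in KO, below day 0 in every library, and KO did not pass the test against WT at either day. *Rtl1*, a gene derived from a retrotransposon and needed in placental vessels, reached at most 0.57 CPM and was not tested.

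In the *Kcnq1* cluster on chromosome 7, *Cdkn1c* was the member with the largest increase in KO ESCs. *Cdkn1c* encodes the cyclin-dependent kinase inhibitor p57 and is read from the maternal copy. The gene lies at chr7:143458339-143461050 of GRCm38 (minus strand). It had 48.4, 50.5 and 39.6 CPM in WT and 159, 177 and 152 CPM in KO at day 0, a 3.51-fold difference between means with no overlap. The log2 fold change was 1.81 ± 0.16 (SE; edgeR, adjusted p = 0.000172). Among day 3 libraries it had 20.2, 26 and 33.7 CPM in WT and 26.1, 28 and 27.7 CPM in KO, and the groups overlapped, with a log2 fold change of 0.04 ± 0.16 (SE; edgeR, adjusted p = 0.873). From day 0 to day 3 *Cdkn1c* fell in both genotypes, with log2 fold changes of -0.80 (adjusted p = 0.00209 in edgeR) in WT and -2.57 (adjusted p = 1.71e-06 in edgeR) in KO, and the effect of KO differed between the days by -1.77 ± 0.23 (SE; edgeR, adjusted p = 0.00146). The day 0 call and the difference between days each held in all 12 fits that left out 1 library.

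*Kcnq1ot1*, the antisense RNA whose transcription silences this cluster on the paternal copy, had 10, 17.2 and 11.2 CPM in WT and 4.87, 15 and 12.4 CPM in KO at day 0. At day 3 the values were 16.8, 28.4 and 40.1 CPM in WT and 8.44, 23.8 and 30.2 CPM in KO. It rose from day 0 to day 3 in both genotypes, at log2 fold changes of 1.08 (adjusted p = 0.00729 in edgeR) in WT and 0.93 (adjusted p = 0.0151 in edgeR) in KO, although neither call held without the replicate block, and KO did not pass the test against WT at either day. *Phlda2*, a maternally expressed gene that restrains placental growth, had 72, 60 and 64.2 CPM in WT and 65.6, 49.1 and 46 CPM in KO at day 0. At day 3 it had 16.7, 22.7 and 43.4 CPM in WT and 19.5, 24.4 and 19.7 CPM in KO, lower than at day 0 in every library. The transporter gene *Slc22a18* lies between *Cdkn1c* and *Phlda2* and had 3.71, 1.41 and 1.32 CPM in WT and 4.81, 4.57 and 3.67 CPM in KO at day 0, where the log2 fold change was 1.09 ± 0.41 (SE; edgeR, adjusted p = 0.0854). Its groups overlapped, and KO was higher in all 3 pairs. With a replicate block within each day the difference passed, at 1.13 (adjusted p = 0.0139 in edgeR). In day 3 cells it had 1.21, 0.87 and 2.14 CPM in WT and 1.05, 0.91 and 1.37 CPM in KO. *Ascl2*, a transcription factor of the trophoblast, had 3.27, 2.4 and 1.64 CPM and 2.97, 3.36 and 3.37 CPM in WT and KO at day 0 and 0.56, 5.24 and 5.42 CPM and 1.0, 5.85 and 5.66 CPM at day 3, and passed no test.

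*Zrsr1* was the other member with an increase in KO ESCs, and it shares its locus on chromosome 11 with *Commd1*, which fell. *Zrsr1*, a paternally expressed splicing factor gene, is a retrogene within an intron of the maternally expressed *Commd1*. The gene lies at chr11:22972005-22976496 of GRCm38 (plus strand). It had 24.1, 21.1 and 15.4 CPM in WT and 47, 48.1 and 41.5 CPM in KO at day 0. WT and KO libraries did not overlap, and the log2 fold change was 1.19 ± 0.13 (SE; edgeR, adjusted p = 0.000447). At day 3 the values were 16.4, 12.4 and 13.9 CPM in WT and 23.1, 18.8 and 18 CPM in KO, again without overlap, with a log2 fold change of 0.48 ± 0.13 (SE; edgeR, adjusted p = 0.0206). The day 3 call was lost without WT day 3 replicate 2 or KO day 3 replicates 1 or 3, with log2 fold changes between 0.38 and 0.61 and adjusted p up to 0.0851, and without the replicate block it was 0.49 (adjusted p = 0.0571 in edgeR). *Commd1*, which encodes a protein of copper handling, had 23, 22.1 and 24.1 CPM in WT and 19.8, 17.1 and 15.6 CPM in KO at day 0, and 29.9, 25.8 and 23.6 CPM and 21.5, 18.4 and 18.2 CPM at day 3. Every KO library lay below every WT library of its day, with log2 fold changes of -0.41 (adjusted p = 0.0276 in edgeR) and -0.45 (adjusted p = 0.013 in edgeR). At day 0 the call was lost without WT replicates 2 or 3 or any 1 of the 3 KO replicates of that day (adjusted p up to 0.134), and without the replicate block the value was -0.40 (adjusted p = 0.0609 in edgeR), and it was also lost with no filter on low counts. At day 3 it was lost without KO replicates 2 or 3 (adjusted p up to 0.0645). The annotated exons of both genes overlap over 412 bases on opposite strands.

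**Figure D2:**
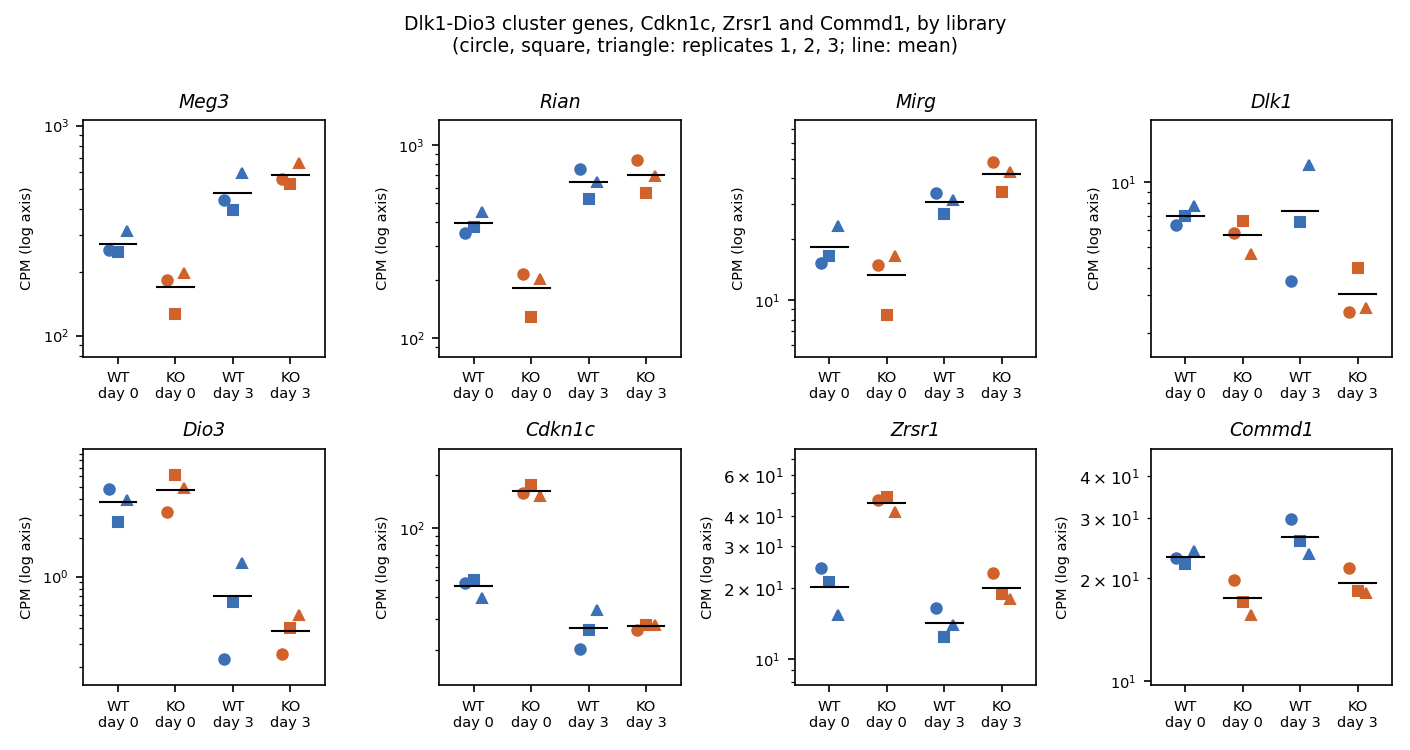
CPM on a log axis for *Meg3*, *Rian*, *Mirg*, *Dlk1*, *Dio3*, *Cdkn1c*, *Zrsr1* and *Commd1*, by genotype and day (WT in blue, KO in orange), with 1 symbol for each of 3 replicates and a line at the mean. *Cdkn1c* and *Zrsr1* at day 0 lie higher in all 3 KO libraries than in any WT library, and *Meg3* and *Rian* lie lower.

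The *Peg3* cluster on chromosome 7 was lower in KO cells at each of its 3 members in every pair of libraries. *Peg3*, a paternally expressed zinc finger gene, at chr7:6703892-6730431 of GRCm38 (minus strand), had 229, 209.8 and 312 CPM in WT and 165, 84.5 and 130.3 CPM in KO at day 0. No KO library overlapped the WT range, and the log2 fold change was -0.97 ± 0.26 (SE; edgeR, adjusted p = 0.0253). This call was lost without any 1 of the 3 WT replicates or without KO replicates 2 or 3 of that day, with log2 fold changes between -1.38 and -0.75 and adjusted p up to 0.118, and was -0.98 (adjusted p = 0.0798 in edgeR) without the replicate block. At day 3 *Peg3* had 463, 481 and 1206 CPM in WT and 101, 108 and 157 CPM in KO. The highest KO library reached less than any WT library, and the log2 fold change was -2.47 ± 0.27 (SE; edgeR, adjusted p = 0.000222), or -2.08 (adjusted p = 0.000343 in edgeR) without WT replicate 3. *Peg3* rose from day 0 to day 3 in WT by 1.43 (adjusted p = 0.0011 in edgeR) on the log2 scale, whereas the value in KO was -0.07 (adjusted p = 0.832 in edgeR).

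*Usp29*, a deubiquitinase gene that starts beside *Peg3* on the opposite strand, had 4.96, 5.27 and 3.43 CPM in WT and 1.9, 1.49 and 0.56 CPM in KO at day 0, and 4.1, 2.4 and 6.19 CPM and 1.65, 1.59 and 2.04 CPM at day 3. The groups did not overlap at either day, and the log2 fold change was -1.81 ± 0.45 (SE; edgeR, adjusted p = 0.0195) at day 0 and -1.25 ± 0.44 (SE; edgeR, adjusted p = 0.0531) at day 3. The day 3 difference passed with a replicate block within each day, at -1.21 (adjusted p = 0.00563 in edgeR), and without the block, at -1.26 (adjusted p = 0.0406 in edgeR). The day 0 call was lost without WT replicate 2 or KO replicates 2 or 3 of that day (adjusted p up to 0.081). In these low values, 32.6% of the 100-base words of its transcripts also occur in *Zim3*, which is annotated on the opposite strand. *Zim1*, a maternally expressed zinc finger gene, had 1.96, 1.77 and 2.9 CPM in WT and 1.68, 1.32 and 1.73 CPM in KO at day 0, a difference that did not pass the test. Its day 3 levels were 3.91, 3.17 and 11.8 CPM in WT and 0.80, 0.51 and 0.58 CPM in KO. WT and KO libraries did not overlap at that time. The log2 fold change was -3.16 ± 0.40 (SE; edgeR, adjusted p = 0.000487), or -2.56 (adjusted p = 0.000543 in edgeR) without WT replicate 3. The call held in each of the 12 fits that left out 1 library.

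*Mest* was lower in KO cells at both days. It is a paternally expressed gene for a hydrolase-like protein of mesoderm and growing tissues. The gene lies at chr6:30723547-30748465 of GRCm38 (plus strand). It had 40.5, 66 and 87.8 CPM in WT and 14.8, 17.1 and 22.2 CPM in KO at day 0, where the highest KO library was below the lowest WT library, and the log2 fold change was -1.81 ± 0.35 (SE; edgeR, adjusted p = 0.00568). By day 3 it had 84.9, 55 and 205 CPM in WT and 25.7, 28.6 and 22 CPM in KO, again without overlap. The log2 fold change was -2.0 ± 0.35 (SE; edgeR, adjusted p = 0.00242), or -1.54 (adjusted p = 0.00562 in edgeR) without WT replicate 3. Both calls held in each of 12 fits that left out 1 library. *Copg2*, a coat protein gene that runs into *Mest* from the other strand, had 94.2, 71.3 and 60 CPM in WT and 80.7, 58.1 and 56.6 CPM in KO at day 0, and 115, 106 and 106 CPM and 107, 92.4 and 98.8 CPM at day 3. Its KO libraries were below the WT libraries of the same number in all 6 pairs, but neither difference passed the test, at log2 fold changes of -0.20 (adjusted p = 0.227 in edgeR) and -0.13 (adjusted p = 0.382 in edgeR). The day 0 difference did pass with a replicate block within each day, at -0.20 (adjusted p = 0.0348 in edgeR). The exons of both genes overlap over 912 bases, 23.1% of the exonic length of *Mest* and 17.8% of that of *Copg2*.

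In the *Peg10* cluster on chromosome 6 both members were lower in KO cells at day 3. *Peg10*, a paternally expressed gene derived from a retrotransposon and needed for the placenta, at chr6:4747306-4760517 of GRCm38 (plus strand), had 551, 525 and 652 CPM in WT and 942, 969 and 818 CPM in KO at day 0. Every KO library was higher than every WT library, but the log2 fold change of 0.70 ± 0.39 (SE; edgeR, adjusted p = 0.236) did not pass the test. Without WT day 3 replicate 3 it was 0.67 (adjusted p = 0.00254 in edgeR). At day 3 *Peg10* had 319, 377 and 1474 CPM in WT and 103, 103 and 115 CPM in KO. Each KO library was below the lowest WT library, and the log2 fold change was -2.56 ± 0.42 (SE; edgeR, adjusted p = 0.00178), or -1.7 (adjusted p = 6.03e-05 in edgeR) without WT replicate 3. From day 0 to day 3 *Peg10* fell in KO, and the log2 value was -3.13 (adjusted p = 0.000153 in edgeR). In WT the value was 0.13 (adjusted p = 0.792 in edgeR) with all libraries and -0.74 (adjusted p = 0.00108 in edgeR) without replicate 3, so that its sign rested on that library. *Sgce*, the epsilon-sarcoglycan gene that shares the start region of *Peg10*, had 9.11, 4.01 and 4.86 CPM in WT and 10.5, 7.71 and 4.03 CPM in KO at day 0. Among day 3 libraries it had 14.8, 11 and 25.7 CPM in WT and 8.49, 3.81 and 4.62 CPM in KO. No KO library overlapped the WT range at day 3, with a log2 fold change of -1.69 ± 0.39 (SE; edgeR, adjusted p = 0.00941), or -1.02 (adjusted p = 0.0271 in edgeR) without WT replicate 3. The call was lost without KO replicate 3 (adjusted p = 0.0565).

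Members of the *Snrpn* cluster on chromosome 7, the mouse counterpart of the Prader-Willi and Angelman region, did not move together. *Ndn*, the paternally expressed necdin gene, at chr7:62346569-62350262 of GRCm38 (plus strand), had 9.76, 9.8 and 13.5 CPM in WT and 5.88, 5.51 and 5.1 CPM in KO at day 0, where the log2 fold change was -0.99 ± 0.15 (SE; edgeR, adjusted p = 0.00195). At day 3 it had 29.1, 28 and 34.9 CPM in WT and 9.49, 8.29 and 10.2 CPM in KO, where the log2 fold change was -1.71 ± 0.15 (SE; edgeR, adjusted p = 7.34e-05). The groups did not overlap at either day, and both calls held in each of 12 fits that left out 1 library. *Ndn* rose from day 0 to day 3 in both genotypes, by 1.48 (adjusted p = 2.93e-05 in edgeR) in WT and 0.76 (adjusted p = 0.00172 in edgeR) in KO on the log2 scale. *Peg12*, a paternally expressed gene of the Frat family that binds glycogen synthase kinase 3, had 4.64, 3.39 and 3.06 CPM in WT and 4.42, 4.35 and 2.3 CPM in KO at day 0, with groups that overlapped. In day 3 cells it had 3.4, 2.64 and 8.18 CPM in WT and 1.15, 0.68 and 0.83 CPM in KO, without overlap. On the log2 scale the difference was -2.4 ± 0.48 (SE; edgeR, adjusted p = 0.00469), or -1.55 (adjusted p = 0.00598 in edgeR) without WT replicate 3, and the call held in all 12 fits that left out 1 library.

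*Snrpn*, a spliceosome component read from the paternal copy, had 119, 138 and 167 CPM in WT and 117, 96.9 and 119.9 CPM in KO at day 0. Its day 3 levels were 213, 193 and 118 CPM in WT and 302, 241 and 275 CPM in KO, and every KO library was higher than every WT library. On the log2 scale the difference was 0.64 ± 0.20 (SE; edgeR, adjusted p = 0.0376), or 0.39 (adjusted p = 0.0536 in edgeR) without WT replicate 3. The call was also lost without WT day 0 replicate 2, KO day 0 replicate 1 or any 1 of the KO replicates of day 3 (adjusted p up to 0.112). *Magel2*, a MAGE family gene, had 6.49, 7.25 and 22.2 CPM in WT and 7.17, 5.18 and 6.28 CPM in KO at day 0, and 33.5, 29.9 and 18.2 CPM and 25.4, 16.2 and 22.1 CPM at day 3. *Mkrn3*, a ring finger gene, had 5.78, 3.34 and 3.01 CPM and 5.71, 3.47 and 3.98 CPM at day 0, and 7.27, 6.78 and 7.33 CPM and 4.15, 4.03 and 5.41 CPM at day 3. *Ube3a*, a ubiquitin ligase that is imprinted in neurons and read from both copies in most other cells, had 220.1, 245 and 205 CPM and 251, 236 and 229.9 CPM at day 0, and 243, 224 and 197 CPM and 229, 193 and 186 CPM at day 3. For *Magel2*, *Mkrn3* and *Ube3a* KO did not pass the test against WT at either day, with the exception of *Mkrn3* at day 3 under a replicate block within each day, at -0.66 (adjusted p = 0.00994 in edgeR). The exons of *Snrpn* share 27.3% of their length with *Gm38393* and 10% with *Snurf* on the same strand, and those of *Ube3a* share 8.7% with *Snhg14* on the opposite strand.

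At the *Igf2*-*H19* locus on chromosome 7 the difference at day 3 depended on 1 WT library in its size. *Igf2*, the paternally expressed fetal growth factor, at chr7:142650766-142666816 of GRCm38 (minus strand), had 26.5, 44.5 and 38.2 CPM in WT and 27.2, 40.3 and 26.3 CPM in KO at day 0, with groups that overlapped. By day 3 it had 27.3, 36.5 and 978 CPM in WT and 8.19, 6.53 and 5.99 CPM in KO. Replicate 3 of WT was 30.7 times the mean of the other WT replicates, and all KO libraries were below all WT libraries. The log2 fold change was -4.75 ± 1.25 (SE; edgeR, adjusted p = 0.0171) with all libraries and -2.1 (adjusted p = 0.000359 in edgeR) without WT replicate 3. The call was lost without KO replicates 2 or 3, with log2 fold changes between -5.78 and -2.1 and adjusted p up to 0.102 over the 12 fits. *H19*, the maternally expressed noncoding RNA that shares enhancers with *Igf2*, had 15.5, 21.6 and 25 CPM in WT and 9.91, 13.2 and 12.7 CPM in KO at day 0. The day 0 groups did not overlap, but the log2 fold change of -0.76 ± 0.93 (SE; edgeR, adjusted p = 0.617) did not pass the test. At day 3 *H19* had 8.62, 24.3 and 401 CPM in WT and 4.64, 13.8 and 7.11 CPM in KO, with groups that overlapped. The log2 fold change was -3.21 ± 1.08 (SE; edgeR, adjusted p = 0.0454) with all libraries and -0.92 (adjusted p = 0.0465 in edgeR) without WT replicate 3. That call was lost in 9 of 12 fits that left out 1 library, all but those without a WT library of day 3, with log2 fold changes between -4.12 and -0.92 and adjusted p up to 0.222, and it was also lost with limma-voom and with only the 6 libraries of day 3.

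**Figure D3:**
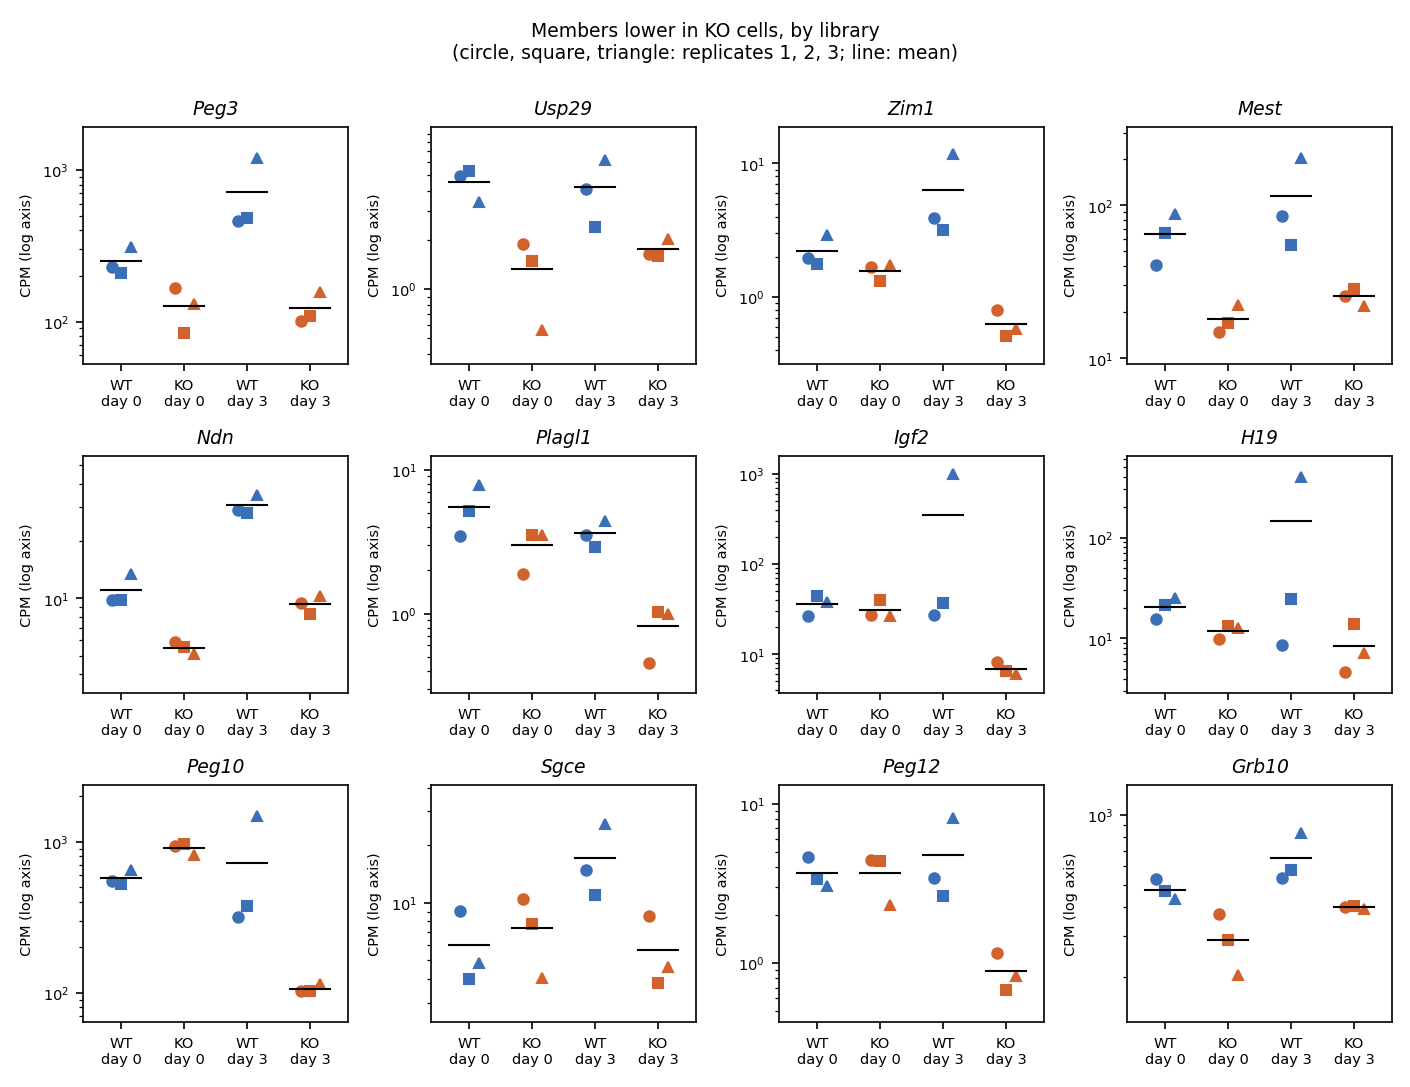
CPM on a log axis for 12 members that were lower in KO cells at day 0, day 3 or both, by genotype and day (WT in blue, KO in orange), with 1 symbol for each of 3 replicates and a line at the mean. *Mest* and *Ndn* lie lower in KO at both days, *Peg10* and *Peg12* at day 3, and the triangle of WT at day 3 lies far above the other WT symbols for *Igf2*, *H19* and *Peg10*.

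Among the single-gene loci, 3 passed the test at both days in the same or opposite directions and 4 at 1 day. *Grb10*, an adaptor protein that limits insulin and growth factor signals, had 526, 469 and 431 CPM in WT and 373, 289 and 204 CPM in KO at day 0, and 531, 581 and 838 CPM and 400, 406 and 392 CPM at day 3. WT and KO libraries did not overlap at either day, with log2 fold changes of -0.73 (adjusted p = 0.0373 in edgeR) and -0.71 (adjusted p = 0.0298 in edgeR). Without WT day 3 replicate 3 the day 3 value was -0.34 (adjusted p = 0.151 in edgeR), and that call was also lost without any 1 of the KO replicates of day 3. The day 0 call was lost in 7 of 12 such fits, all but those without a WT library of day 3, KO day 0 replicate 1 or KO day 3 replicate 1, with log2 fold changes between -0.97 and -0.49 and adjusted p up to 0.132.

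*Plagl1*, a paternally expressed zinc finger gene that is known to regulate other imprinted genes, at chr10:13060504-13131694 of GRCm38 (plus strand), had 3.49, 5.16 and 7.81 CPM in WT and 1.9, 3.52 and 3.52 CPM in KO at day 0, with groups that overlapped. Its day 0 log2 fold change was -0.86 ± 0.27 (SE; edgeR, adjusted p = 0.0478), and the call was lost in 10 of 12 fits that left out 1 library, all but those without WT day 3 replicates 1 or 2 (log2 fold changes between -1.02 and -0.70 and adjusted p up to 0.198). Without the replicate block it was -0.88 (adjusted p = 0.126 in edgeR), and RLE normalization and the fit with no filter on low counts also ended it. At day 3 *Plagl1* had 3.54, 2.93 and 4.43 CPM in WT and 0.45, 1.02 and 1.0 CPM in KO. All KO libraries were below all WT libraries at day 3, and the log2 fold change was -2.2 ± 0.30 (SE; edgeR, adjusted p = 0.000693), which held in each of those 12 fits.

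*Impact*, a paternally expressed regulator of the translation kinase GCN2, had 602, 497 and 587 CPM in WT and 517, 349 and 487 CPM in KO at day 0, with groups that overlapped and a log2 fold change of -0.33 ± 0.10 (SE; edgeR, adjusted p = 0.0422). This call was lost in 7 of 12 fits that left out 1 library, all but those without WT day 3 replicates 2 or 3, KO day 0 replicate 1 or KO day 3 replicates 1 or 2 (log2 fold changes between -0.40 and -0.20 and adjusted p up to 0.151), and was -0.32 (adjusted p = 0.119 in edgeR) without the replicate block. RLE normalization also ended it. At day 3 *Impact* had 443, 399 and 398 CPM in WT and 644, 620.3 and 630.3 CPM in KO. Every KO library was higher than every WT library, with a log2 fold change of 0.61 ± 0.10 (SE; edgeR, adjusted p = 0.00157). From day 0 to day 3 *Impact* fell in WT and rose in KO, at log2 fold changes of -0.44 (adjusted p = 0.00393 in edgeR) and 0.50 (adjusted p = 0.00163 in edgeR). The day 3 call held in all 12 fits.

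*Nnat*, a paternally expressed proteolipid gene of neural and endocrine cells, had 15.6, 14.3 and 22.8 CPM in WT and 9.74, 7.16 and 9.29 CPM in KO at day 0. No KO library overlapped the WT range, and the log2 fold change of -0.98 ± 0.19 (SE; edgeR, adjusted p = 0.00585) held in each of 12 fits that left out 1 library. At day 3 *Nnat* had 33.1, 30.9 and 66.3 CPM in WT and 35.8, 33.3 and 41 CPM in KO, with overlap. *Zdbf2*, a paternally expressed zinc finger gene, had 249, 305 and 346 CPM in WT and 287, 303 and 388 CPM in KO at day 0, and 454, 559.9 and 329 CPM and 273, 257 and 304 CPM at day 3. It was lower in every KO library than in any WT library at day 3 only, with a log2 fold change of -0.69 ± 0.19 (SE; edgeR, adjusted p = 0.0199). The call was lost without WT day 3 replicates 1 or 2 or KO day 3 replicates 2 or 3 (adjusted p up to 0.0947).

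*Nap1l5*, a paternally expressed retrogene of the nucleosome assembly protein family, had 1.8, 1.77 and 1.32 CPM in WT and 1.12, 1.05 and 1.12 CPM in KO at day 0. Among day 3 libraries it had 2.24, 2.45 and 4.57 CPM in WT and 4.1, 5.74 and 7.98 CPM in KO. KO was higher in all 3 pairs at day 3, although the lowest KO value was below the highest WT value, and the log2 fold change was 0.95 ± 0.29 (SE; edgeR, adjusted p = 0.0323). *Sfmbt2*, a paternally expressed Polycomb protein gene, had 69.6, 94 and 86.6 CPM in WT and 138, 83.9 and 107 CPM in KO at day 0, and 24.9, 36.3 and 29.6 CPM and 46.2, 52.2 and 44.3 CPM at day 3. Every KO library was higher than every WT library at day 3, with a log2 fold change of 0.65 ± 0.20 (SE; edgeR, adjusted p = 0.0314), or 0.69 (adjusted p = 0.0671 in edgeR) without WT replicate 3. The day 3 call of *Nap1l5* was lost without WT day 3 replicates 1 or 2 or KO day 3 replicates 2 or 3 (adjusted p up to 0.141). That of *Sfmbt2* was lost without WT day 3 replicates 1 or 3 or any 1 of the KO replicates of day 3 (adjusted p up to 0.109).

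Of the remaining members *Peg13* alone passed a test between the genotypes with all libraries and the replicate block over both days. With a replicate block within each day *Gnas* and *Trappc9* also passed at day 0, at -0.28 (adjusted p = 0.046 in edgeR) and 0.39 (adjusted p = 0.00771 in edgeR), and *Airn*, *Mcts2* and *Trappc9* at day 3, at -3.57 (adjusted p = 0.0254 in edgeR), -0.29 (adjusted p = 0.0226 in edgeR) and -0.42 (adjusted p = 0.00425 in edgeR). *Gnas*, the stimulatory G protein alpha subunit, rose from day 0 to day 3 in both WT and KO, at log2 fold changes of 1.53 (adjusted p = 9.56e-06 in edgeR) and 1.6 (adjusted p = 4.38e-06 in edgeR), with means of 618 ± 60.1 CPM in WT and 535 ± 15.4 CPM in KO at day 3 (SD, n = 3). *Igf2r*, the maternally expressed receptor that clears IGF2, had means of 197 ± 34.7 CPM in WT and 219 ± 19.9 CPM in KO at day 0, and fell from day 0 to day 3 in KO, at a log2 fold change of -0.56 (adjusted p = 0.0276 in edgeR). In WT the same step gave -0.26 (adjusted p = 0.256 in edgeR), which passed without WT day 3 replicate 3, at -0.51 (adjusted p = 0.0404 in edgeR), and with a replicate block within each day. Its antisense RNA *Airn* was above 1 CPM only in WT day 3 replicate 3, at 3.62 CPM. The other WT libraries of day 3 had 0.05 CPM each, and KO had 0.1, 0.11 and 0.04 CPM. As *Airn* passed the filter only through that high WT library, its pass at day 3 cannot be read as a difference between the genotypes. *H13*, a signal peptide peptidase gene, and the retrogene *Mcts2* in its intron did not pass the test between the genotypes with all libraries and the block over both days. *Trappc9*, a vesicle transport gene, had 18.8, 22.6 and 23.7 CPM in WT and 15.7, 15.3 and 17.3 CPM in KO at day 3, without overlap, and the log2 fold change was -0.43 ± 0.18 (SE; edgeR, adjusted p = 0.0979). *Peg13*, a noncoding RNA in an intron of *Trappc9*, was above 1 CPM in 1 library, WT day 3 replicate 3 at 1.38 CPM. It had 0.33, 0.87 and 1.38 CPM in WT and 0.15, 0.23 and 0.42 CPM in KO at day 3, a log2 fold change of -1.62 (adjusted p = 0.0194 in edgeR), and it could not be tested without that library because it then fell below the filter. That call was also lost without WT day 3 replicate 2 or KO day 3 replicates 2 or 3 (adjusted p up to 0.0843), without the replicate block and with DESeq2.

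Replicate 3 of WT at day 3 was more than 2 times the mean of replicates 1 and 2 for 14 of the 41 tested members (34.1%), against 7.76% of all 15673 genes tested. *Airn* and *Peg13* were above 1 CPM in that library alone, so they passed the filter only through it and had to be high there. Over genes above 1 CPM in another library the counts were 12 of 39 members (30.8%) and 6.43% of 15374 genes. In KO cells replicate 3 exceeded the others by that factor for 1 member (2.44%) and 2.33% of all genes. The 14 were *Airn*, *Igf2*, *H19*, *Peg10*, *Zim1*, *Dio3*, *Mest*, *Peg12*, *Peg3*, *Dlk1*, *Peg13*, *Phlda2*, *Nnat* and *Slc22a18*. The 5 trophoblast markers summed to 129 CPM in this library and to 17.1 and 20 CPM in the other WT libraries of day 3, with *Hand1* as the largest part in this library, and *Elf5* was at 0.05 CPM in each of the 3. The 5 visceral endoderm markers summed to 47.7 CPM against 5.5 and 11.9 CPM, and the 12 fibroblast markers to 110.0 CPM against 54.9 and 60.5 CPM. In KO at day 3 the visceral endoderm sums were 12.8, 58.6 and 28.1 CPM and the fibroblast sums 47.25, 94.5 and 96.8 CPM. The trophoblast sums in these KO libraries were 3.8, 4.2 and 4.82 CPM. Whether such cell types were present in these libraries was not tested, nor was their part in the values of the imprinted genes.

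**Figure D4:**
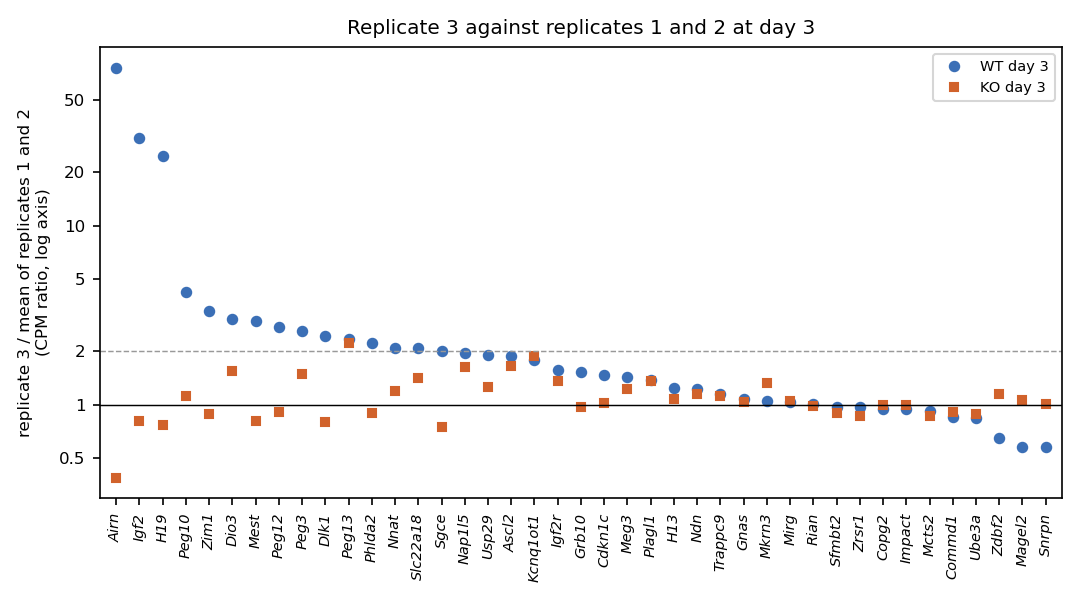
Ratio of the CPM in replicate 3 to the mean of replicates 1 and 2 at day 3, on a log axis, for the 41 tested members ordered by the WT ratio, with WT as blue circles and KO as orange squares. The dashed line marks a ratio of 2, above which 14 members lie in WT and 1 in KO.

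The step from day 0 to day 3 was compared between the genotypes over the same members. In WT 15 members rose and 6 fell, 51.2% of those tested beside 56.2% of all genes, and in KO 12 rose and 15 fell, 65.9% beside 56.6% (of all genes 30.7% rose and 25.5% fell in WT, and 29.4% rose and 27.2% fell in KO). *Meg3*, *Rian*, *Mirg*, *Ndn*, *Nnat*, *Gnas*, *Magel2*, *Nap1l5*, *Copg2* and *Kcnq1ot1* rose in both, and *Cdkn1c*, *Phlda2*, *Zrsr1*, *Sfmbt2* and *Dio3* fell in both. *Peg3*, *Sgce*, *Zdbf2* and *Mkrn3* passed the test for a rise in WT and not in KO. A fall passed in KO and not in WT for *Peg10*, *Peg12*, *Plagl1*, *Slc22a18*, *H13*, *Igf2r*, *Ube3a*, *Dlk1* and *Trappc9*, and a rise for *Snrpn*. Without WT day 3 replicate 3 *Peg10* and *Igf2r* also fell in WT, at -0.74 (adjusted p = 0.00108 in edgeR) and -0.51 (adjusted p = 0.0404 in edgeR), and *Snrpn* also rose, at 0.55 (adjusted p = 0.00571 in edgeR). With a replicate block within each day *Igf2r* and *Trappc9* fell in WT too. Of these 14 members the difference between the genotypes passed its own test for *Peg3*, *Sgce*, *Peg10*, *Peg12*, *Plagl1* and *Snrpn*. *Impact* fell in WT and rose in KO. *Zim1* rose in WT and fell in KO, at log2 fold changes of 1.37 (adjusted p = 0.00804 in edgeR) and -1.33 (adjusted p = 0.0199 in edgeR), and its rise in WT was 0.75 (adjusted p = 0.0431 in edgeR) without WT day 3 replicate 3. Several of these calls rested on single libraries. In WT they were lost for *Magel2* without WT day 0 replicates 1 or 2 or WT day 3 replicates 1 or 2 (adjusted p up to 0.117 in edgeR), *Mkrn3* without WT day 0 replicates 2 or 3 or WT day 3 replicate 2 (adjusted p up to 0.0714 in edgeR), *Zdbf2* without WT day 0 replicates 1 or 2 or WT day 3 replicates 1 or 2 (adjusted p up to 0.12 in edgeR), *Nap1l5* without WT day 0 replicates 2 or 3, WT day 3 replicate 3, KO day 0 replicates 2 or 3 or KO day 3 replicates 2 or 3 (adjusted p up to 0.194 in edgeR) and *Zrsr1* without WT day 3 replicate 2 (adjusted p up to 0.0542 in edgeR). In KO they were lost for *Dlk1* without WT day 0 replicates 1, 2 or 3, WT day 3 replicate 2, KO day 0 replicates 1 or 2 or KO day 3 replicates 1, 2 or 3 (adjusted p up to 0.187 in edgeR), *H13* without KO day 0 replicates 1 or 2 or KO day 3 replicates 1, 2 or 3 (adjusted p up to 0.102 in edgeR), *Igf2r* without KO day 0 replicates 1 or 2 or KO day 3 replicates 1 or 2 (adjusted p up to 0.126 in edgeR), *Kcnq1ot1* without KO day 0 replicates 1 or 3 or KO day 3 replicate 3 (adjusted p up to 0.0954 in edgeR), *Ube3a* without KO day 0 replicates 1 or 3 or KO day 3 replicates 2 or 3 (adjusted p up to 0.133 in edgeR) and *Zim1* without KO day 0 replicates 1 or 2 or KO day 3 replicate 3 (adjusted p up to 0.0997 in edgeR), and without the replicate block for *Dlk1*, *H13*, *Kcnq1ot1* and *Ube3a*. The effect of KO differed between the days for 15 members (36.6%, beside 15.5% of all genes), 6 with a higher and 9 with a lower log2 fold change at day 3 than at day 0, beside 8.21% and 7.34% of all genes. Of these, 2 higher and 7 lower also exceeded 1 in size, beside 4.93% and 4.6% of all genes. Without the replicate block 9 members passed, and 23 did with a replicate block within each day, among them all 15. For these blocks the share of all genes was not counted.

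Genes beside the imprinted loci were read for comparison. Only members and the further imprinted genes read below were left out. The genes kept were not checked for other imprinted genes and may hold some. The nearest 2 remaining tested PCGs on each side of the 19 loci lay between 8.1 and 4219 kb away. They are therefore not always adjacent genes, and the *Igf2*-*H19* and *Kcnq1* clusters shared theirs. This gave 72 tested PCGs. Of these 15 changed at day 0 (20.8%, beside 20.4% of all genes tested), 7 higher and 8 lower. At day 3, 23 changed (31.9%, beside 30.9% of all genes), 7 higher and 16 lower. Their median log2 fold changes were -0.06 and -0.01, against -0.28 and -0.43 over the imprinted genes. *Cct4*, a chaperonin subunit gene 8.1 kb from the *Commd1* locus, was lower in KO cells at both days (log2 fold changes -0.43 and -0.39, adjusted p = 0.0021 and 0.00213 in edgeR). *Commd1* was lower too, whereas *Zrsr1* at that locus was higher. *Cobl* beside *Grb10* was higher in KO at day 0, at 0.82 (adjusted p = 0.000516 in edgeR), whereas *Grb10* was lower, at -0.73. Directions of flanks and loci were not compared as a set.

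Genes that set, read or erase imprints were followed as a list of 20, of which 19 were tested. At day 0, 3 were higher and 4 lower in KO cells, and at day 3, 6 were higher and 1 lower (36.8% of the list at each day, beside 20.4% and 30.9% of all genes tested). *Zfp57*, which encodes the imprint-binding protein named with the promoters, had 206, 315 and 249 CPM in WT and 473, 506 and 639.5 CPM in KO at day 0. All KO libraries were higher, with a log2 fold change of 1.07 ± 0.17 (SE; edgeR, adjusted p = 0.00215), and at day 3 the values had fallen to 96.3, 79.5 and 80.6 CPM and 79.8, 68.3 and 71.8 CPM. *Dppa3*, which protects maternal methylation in the zygote, had 27.9, 18.1 and 13.9 CPM in WT and 2.8, 1.27 and 1.28 CPM in KO at day 0, the largest difference of the list, with a log2 fold change of -3.51 ± 0.26 (SE; edgeR, adjusted p = 6.74e-05). *Tet2*, an enzyme that oxidises methylated cytosine, and *Ehmt2*, a histone methyltransferase, were higher in KO ESCs, with log2 fold changes of 1.46 (adjusted p = 0.0232 in edgeR) and 0.68 (adjusted p = 0.00038 in edgeR). The call of *Tet2* was lost without the replicate block, at 1.46 (adjusted p = 0.0589 in edgeR), and without WT replicates 2 or 3 or KO replicates 1 or 3 of day 0, with log2 fold changes between 1.13 and 1.97 and adjusted p up to 0.118 over the 12 fits.

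For the de novo methyltransferase genes *Dnmt3a* and *Dnmt3b* the effect of KO differed between the days, by 2.83 (adjusted p = 0.000243 in edgeR) and 1.74 (adjusted p = 0.0013 in edgeR) on the log2 scale. *Dnmt3a* had 195, 337 and 263 CPM in WT and 118, 100.3 and 117 CPM in KO at day 0, and 257, 261 and 236 CPM and 739.8, 809.9 and 744 CPM at day 3. The groups did not overlap at either day, with KO lower at day 0 and higher at day 3, at log2 fold changes of -1.23 (adjusted p = 0.000769 in edgeR) and 1.6 (adjusted p = 0.000126 in edgeR). *Dnmt3b* had 433, 570.5 and 719.8 CPM in WT and 359.8, 271 and 348 CPM in KO at day 0, and 1398, 1526 and 1345 CPM and 2579, 2704 and 2972 CPM at day 3, with log2 fold changes of -0.80 (adjusted p = 0.00587 in edgeR) and 0.94 (adjusted p = 0.00168 in edgeR). *Trim28*, the corepressor that ZFP57 recruits, was higher in KO at day 3 by 0.47 (adjusted p = 0.00308 in edgeR) on the log2 scale. *Tet1*, a gene related to *Tet2*, and *Ehmt2* were higher at day 3 too. Over 12 fits that left out 1 library they differed by 0.75 to 0.87 and 0.28 to 0.39. *Dppa3* was the gene of the list that was lower at day 3, by -1.77 to -1.23. These calls held in each of those fits, and that of *Tet1* was lost without the replicate block. *Dnmt1* and *Uhrf1*, which copy methylation at replication, differed by 0.19 (adjusted p = 0.0521 in edgeR) and 0.36 (adjusted p = 0.0133 in edgeR) at day 3, of which the latter passed the test. *Dnmt1* passed with a replicate block within each day, at 0.19 (adjusted p = 0.0186 in edgeR), and the call of *Uhrf1* was lost without KO day 3 replicate 2 (adjusted p = 0.0541 in edgeR). DNA methylation itself was not measured in these samples.

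**Figure D5:**
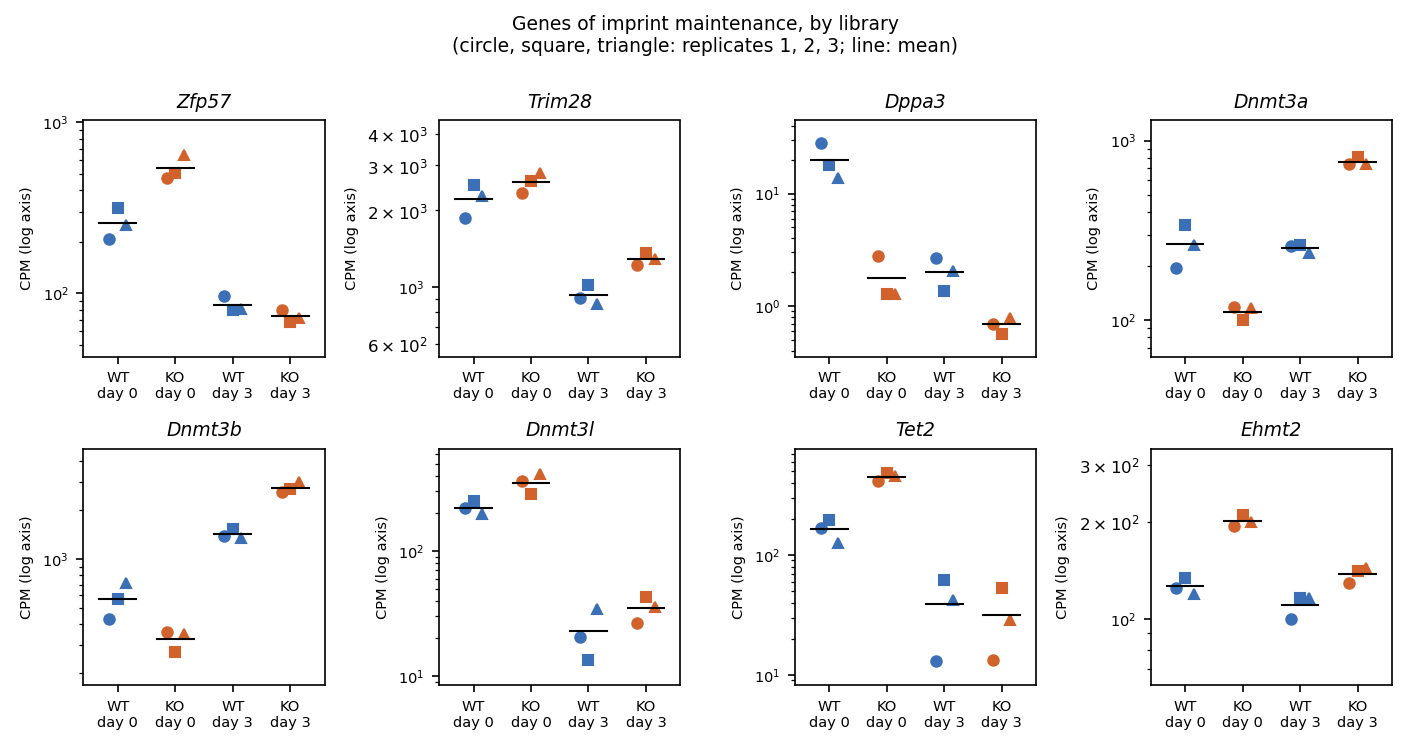
CPM on a log axis for 8 genes that set, read or erase imprints, by genotype and day (WT in blue, KO in orange), with 1 symbol for each of 3 replicates and a line at the mean. At day 0 *Zfp57* and *Tet2* lie higher and *Dppa3*, *Dnmt3a* and *Dnmt3b* lower in KO, and at day 3 *Dnmt3a* and *Dnmt3b* lie higher.

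Markers of the feeder fibroblasts were present at day 0. The 12 fibroblast markers summed to 107, 334 and 183 CPM in WT and to 167, 461 and 321 CPM in KO at day 0, highest in replicate 2 of each genotype, and 0 of the 11 tested changed between the genotypes (edgeR, adjusted p-value below 0.05), with 4 at an unadjusted p-value below 0.05. With a replicate block within each day 4 were higher in KO. These marker sums were higher in KO in all 3 pairs of libraries. The part of feeder RNA in each member was not tested.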

How the data were processed

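The deposited files hold raw read counts per gene, not normalized by the authors. The labels name a stranded mRNA kit with polyA selection. Per the study's methods, reads were trimmed with cutadapt 1.3, filtered for low complexity, aligned to GRCm38 with STAR 2.4.2a and counted with HTSeq 0.6.1 on Ensembl annotation. The strand setting of the counting step is not given in the sources used here for this experiment. Reads aligned to several places, between 36.52% and 44.09% of the alignments accounted for, are not in the counts. Symbols and positions are from GENCODE M21 (46005 of 46517 genes matched).

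The 15673 genes above 1 CPM in any library were fitted in edgeR 4.0.16 (R 4.3.3) with TMM normalization, the quasi-likelihood test, all 12 samples and the replicate number as a block, after the batch factor in the study's methods. P-values were adjusted by Benjamini-Hochberg over all tested genes, with calls below 0.05. Each SE was derived from the test, as the size of the log2 fold change divided by the square root of the F statistic. The numbers come from the sample labels. Over 10900 genes, same-day WT and KO libraries with equal numbers shared their deviations from group means (correlations 0.341 to 0.721, 6 pairs). Those of different days did not (-0.241 to 0.09). The block of the main fit assumes the same deviations at both days, whereas a block within each day follows the sharing measured here. Replicate pairs differed beyond sampling noise (chi-square 10.6 to 51.1 per gene).

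Alternatives were no block, a block within each day, DESeq2 1.42.0, limma-voom (limma 3.58.1), RLE, 2 other filters on low counts, only the 6 samples compared, a log2 fold change minimum of 1, and each library left out in turn. The members and lists were chosen with earlier results of these data known. Values per library are given for members that changed and members of their clusters, and of other lists for up to 6 genes per day. The script was tested on simulated counts. Tables were handled with Python 3.11.15 and pandas 2.3.3, and figures drawn with matplotlib 3.10.9.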

Additional observations from a re-analysis of the deposited data

Results flagged for a closer look

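The effect of KO differed between day 0 and day 3 for 15 members (edgeR's quasi-likelihood test of the interaction, adjusted p-value below 0.05). Values are the log2 fold change of KO against WT at day 3 minus that at day 0. A higher value at day 3 was measured for *Nap1l5* at 1.55 (adjusted p = 0.0413 in edgeR), *Rian* at 1.27 (adjusted p = 0.00312 in edgeR), *Snrpn* at 1.0 (adjusted p = 0.0432 in edgeR), *Meg3* at 0.99 (adjusted p = 0.00198 in edgeR), *Mirg* at 0.95 (adjusted p = 0.0307 in edgeR) and *Impact* at 0.94 (adjusted p = 0.00259 in edgeR). A lower value at day 3 was measured for *Peg10* at -3.26 (adjusted p = 0.00515 in edgeR), *Zim1* at -2.7 (adjusted p = 0.00997 in edgeR), *Peg12* at -2.42 (adjusted p = 0.0307 in edgeR), *Sgce* at -2.05 (adjusted p = 0.0312 in edgeR), *Cdkn1c* at -1.77 (adjusted p = 0.00146 in edgeR), *Peg3* at -1.5 (adjusted p = 0.0209 in edgeR), *Plagl1* at -1.34 (adjusted p = 0.048 in edgeR), *Ndn* at -0.73 (adjusted p = 0.0403 in edgeR) and *Zrsr1* at -0.71 (adjusted p = 0.0296 in edgeR). The calls of *Cdkn1c*, *Impact*, *Meg3*, *Peg10*, *Rian* and *Zim1* held in each of 12 fits that left out 1 library. WT day 3 replicate 3 moved the size of several differences, which without it were -2.36 (adjusted p = 0.00031 in edgeR) for *Peg10*, -2.08 (adjusted p = 0.00928 in edgeR) for *Zim1*, -1.54 (adjusted p = 0.0304 in edgeR) for *Peg12* and -1.33 (adjusted p = 0.048 in edgeR) for *Sgce*. With 1 library left out the call was lost for *Peg3* without WT day 0 replicate 3 or KO day 3 replicates 1 or 3 (adjusted p up to 0.065 in edgeR), *Mirg* without WT day 0 replicates 2 or 3, WT day 3 replicate 3, KO day 0 replicate 2 or KO day 3 replicates 1 or 2 (adjusted p up to 0.0861 in edgeR), *Peg12* without WT day 0 replicates 2 or 3, KO day 0 replicates 1 or 2 or KO day 3 replicates 2 or 3 (adjusted p up to 0.0968 in edgeR), *Sgce* without WT day 0 replicates 2 or 3, KO day 0 replicates 1 or 2 or KO day 3 replicates 2 or 3 (adjusted p up to 0.092 in edgeR), *Snrpn* without WT day 0 replicates 2 or 3, KO day 0 replicates 1, 2 or 3 or KO day 3 replicates 1, 2 or 3 (adjusted p up to 0.117 in edgeR), *Zrsr1* without WT day 0 replicate 3, WT day 3 replicates 1 or 3, KO day 0 replicates 2 or 3 or KO day 3 replicates 1, 2 or 3 (adjusted p up to 0.098 in edgeR), *Nap1l5* without WT day 0 replicates 1 or 2, WT day 3 replicates 1 or 2, KO day 0 replicates 1, 2 or 3 or KO day 3 replicates 2 or 3 (adjusted p up to 0.115 in edgeR), *Ndn* without WT day 0 replicates 1 or 2, WT day 3 replicates 1, 2 or 3, KO day 0 replicates 1 or 2 or KO day 3 replicates 1, 2 or 3 (adjusted p up to 0.114 in edgeR) and *Plagl1* without WT day 0 replicates 1, 2 or 3, WT day 3 replicates 1 or 3, KO day 0 replicates 1, 2 or 3 or KO day 3 replicates 1, 2 or 3 (adjusted p up to 0.139 in edgeR). Without the replicate block it was lost for *Peg3*, *Mirg*, *Sgce*, *Zrsr1*, *Nap1l5*, *Ndn* and *Plagl1*. With a replicate block within each day *Igf2*, *Igf2r*, *Mcts2*, *Mkrn3*, *Nnat*, *Slc22a18*, *Trappc9* and *Zdbf2* passed as well.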

How the results depend on the processing

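The count of changed members at day 0 was 13, and it was 9 without the replicate block, 18 with a replicate block within each day, 21 with only the 6 samples compared, 5 with an added minimum of 1 for the size of the log2 change, and 7 to 16 when 1 library was left out. At day 3 it was 21, with 19 without the block, 27 with the block within each day, 12 with the fold change minimum and 8 to 22 with 1 library left out. From day 0 to day 3 it was 21 in WT, 11 with the fold change minimum and 17 to 23 with 1 library left out, and 27 in KO, with 22 to 30. The difference between the days was called for 15 members, 9 without the replicate block, 23 with the block within each day, 9 with the fold change minimum and 7 to 14 with 1 library left out. The single libraries that moved a count by over 1.5 times were, at day 0, WT day 0 replicates 2 and 3 and KO day 0 replicate 2 (8 each) and KO day 0 replicate 3 (7). At day 3 they were KO day 3 replicates 2 (11) and 3 (8), and for the difference between the days WT day 0 replicates 2 and 3 (8 each), KO day 0 replicate 2 (7) and KO day 3 replicates 1 (9), 2 and 3 (7 each). The value that reversed was *Peg10* from day 0 to day 3 in WT, which was 0.13 with all libraries, between -0.74 and 0.53 with 1 library left out, and -0.74 (adjusted p = 0.00108 in edgeR) without WT day 3 replicate 3. Of 97 called values of single members, 57 were called under every alternative. Apart from the fold change minimum, the share of all genes called was not counted under these settings, so the counts of members cannot be set beside it. The cause of the differences between settings was not tested.

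With 3 libraries per group, leaving out 1 of a compared group removes samples from a small design. Members at low levels, such as *Usp29*, *Zim1*, *Peg12*, *Peg13*, *Plagl1* and *Nap1l5*, rest on fewer reads than the others.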

Other observations

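Further imprinted genes outside the set were read as a list of 26, of which 21 were tested. At day 0, 5 were higher and 3 lower in KO cells, and at day 3, 6 were higher and 2 lower (38.1% at each day, beside 20.4% and 30.9% of all genes tested). Beside *Cdkn1c* in the *Kcnq1* cluster, the tetraspanin gene *Cd81* had 167, 131 and 153 CPM in WT and 257, 246 and 261 CPM in KO at day 0, and *Tssc4* had 26.2, 24.7 and 25 CPM and 36.6, 36.6 and 35.3 CPM. Both were higher in every KO library at day 0, at log2 fold changes of 0.76 (adjusted p = 0.000622 in edgeR) and 0.52 (adjusted p = 0.00449 in edgeR). At day 3 the values of both genes did not pass the test, at log2 fold changes of -0.03 (adjusted p = 0.805 in edgeR) and -0.14 (adjusted p = 0.278 in edgeR).

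Genes on the chromosome of *Peg10* went in different directions. At day 0 *Ppp1r9a* passed the test as higher and *Calcr* as lower in KO, and at day 3 *Ppp1r9a* as higher and *Asb4* as lower. The day 3 call of *Ppp1r9a* held in 4 of 12 fits that left out 1 library, with log2 fold changes between 0.23 and 0.32. *Asb4*, a maternally expressed ubiquitin ligase component, had 38.6, 19.8 and 155 CPM in WT and 2.4, 0.80 and 2.54 CPM in KO at day 3, without overlap, and the log2 fold change was -4.89 ± 0.54 (SE; edgeR, adjusted p = 0.000254). The highest of the WT values was again replicate 3, and without it the log2 fold change was -4.11 (adjusted p = 0.000552 in edgeR). *Ppp1r9a*, a regulator of protein phosphatase, had 42.8, 41.6 and 44.4 CPM in WT and 68.5, 73.2 and 89.8 CPM in KO at day 0, with a log2 fold change of 0.84 ± 0.08 (SE; edgeR, adjusted p = 0.000311). *Calcr*, the calcitonin receptor gene, had 2.89, 1.82 and 6.97 CPM in WT and 0.84, 0.72 and 0.92 CPM in KO at day 0, with a log2 fold change of -2.13 ± 0.35 (SE; edgeR, adjusted p = 0.00276). *Slc22a3*, a transporter gene beside *Igf2r*, had 0.51, 0.67 and 0.90 CPM in WT and 1.6, 4.03 and 3.95 CPM in KO at day 3, where it was higher in every KO library, at log2 fold change of 2.13 (adjusted p = 0.0021 in edgeR).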
